A study of Mus musculus with 16 samples.

Results

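The non-goblet epithelium of the mouse distal colon was compared between 2 genotypes, with 4 Spdef-/- and 4 wild-type libraries, 8 of the 16 libraries of the series. These 8 libraries were chosen by their labels, and every gene of the count table entered the comparison. Both genotypes carried the goblet cell reporter RedMUC298trTg, in which a fluorescent MUC2 transgene carries mCherry and marks mucus-filled goblet cells. The wild-type group is labelled RedMUC298trTg and the other RedMUC298trTg_SpdefKO, written Spdef -/- in the design text. All mice were 6–8 weeks old. Living epithelial cells without mCherry signal were sorted as the non-goblet fraction, labelled colonocytes, and the mCherry-positive cells of both genotypes (4 libraries each) enter this account only as the other fraction. Goblet cells too dim for the gate fall into the non-goblet fraction. The labels name neither the sex of the mice, the number of mice behind a library nor which part of Spdef the allele removes, and they describe the deletion as a property of the strain, so it is not confined to goblet cells. A C57Bl6 mouse served to place the gate. Nothing says that each library came from its own mouse, so a p-value here sets a difference against library-to-library spread, part of which may be technical.

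Spdef is an ETS-family transcription factor that drives maturation of goblet and Paneth cells, the secretory cells of the intestinal crypt. The non-goblet fraction holds mostly absorptive colonocytes, together with stem and dividing crypt cells, hormone-secreting enteroendocrine cells and tuft cells, which are chemosensory cells that respond to luminal metabolites and parasites. Colonocytes take up salt, water and short-chain fatty acids, make part of their own cholesterol and present antigen when exposed to interferons.

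The sort was checked against marker genes. The 32 absorptive colonocyte markers in the count table were summed in CPM (read counts scaled to library size by TMM). The sum was 30122–33667 CPM in wild-type and 26343–34216 CPM in Spdef-/- libraries of this fraction, against 5793–7484 CPM in goblet cells. The 6 goblet cell products (Muc2, Clca3, Fcgbp, Zg16, Agr2 and Tff3) summed to 496–711 CPM here and to 45713–63721 CPM in goblet cells, a low but measurable level. Markers of immune cells summed to 31.4–37.5 CPM in wild-type and 37.3–57.6 CPM in Spdef-/- libraries. Those of stromal, endothelial, glial and blood cells summed to 31.4–50.4 CPM in wild-type and 20.3–27.3 CPM in Spdef-/- libraries, without overlap, and the part of such cells in the results was not tested. The gene counts came to 10085637–16522063 per library. On a principal component analysis of the 8 libraries the first component (42.3% of variance) separated the genotypes, and on the second (19.1%) Spdef-/- libraries 4 and 8 had positive and 6 and 20 negative scores.

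Spdef itself was measured first, since it is the gene named by the genotype. In the order used throughout, wild-type libraries 10, 12, 14 and 17 and Spdef-/- libraries 4, 6, 8 and 20, it was at 2.54, 1.82, 3.77 and 2.64 CPM in wild type and 2.04, 1.89, 3.51 and 1.15 CPM in Spdef-/-. The groups overlapped (log2 -0.28, SE 0.28, adjusted p = 0.559). In goblet cells Spdef averaged 296 and 371 CPM in wild type and Spdef-/- (log2 0.33, adjusted p = 0.116). The count was not shown to be lower in either fraction of the libraries labelled Spdef-/-. Reads of single exons were not examined, and the comparison rests on the labels.

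Of 12915 genes tested, out of 21442 in the table, 787 were higher and 844 lower in Spdef-/- non-goblet epithelium at an adjusted p under 0.05 (edgeR quasi-likelihood test, Benjamini-Hochberg), which is 6.09% and 6.54%, or 12.6% in either direction. An unadjusted p under 0.05 was reached by 3635 genes. Changes of at least 2-fold were found for 101 higher and 270 lower genes, and 133 genes, 33 of them higher, passed a test against a 1.5-fold bound. All 4 Spdef-/- libraries lay above all 4 wild-type libraries for 6.94% of tested genes and below them for 8.38%. The median log2 difference over all tested genes was 0.005. With upper-quartile scaling the counts were 533 higher and 1079 lower, so that 33.1% rather than 48.3% of the changed genes were higher. The count of higher genes was 469 without wild-type 10, 438 without wild-type 17, 380.0 without Spdef-/- 4 and 1183 without Spdef-/- 6, and that of lower genes 560.0 without Spdef-/- 4. The plot of gene lists shows where these changes fell.

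**Figure D1:**
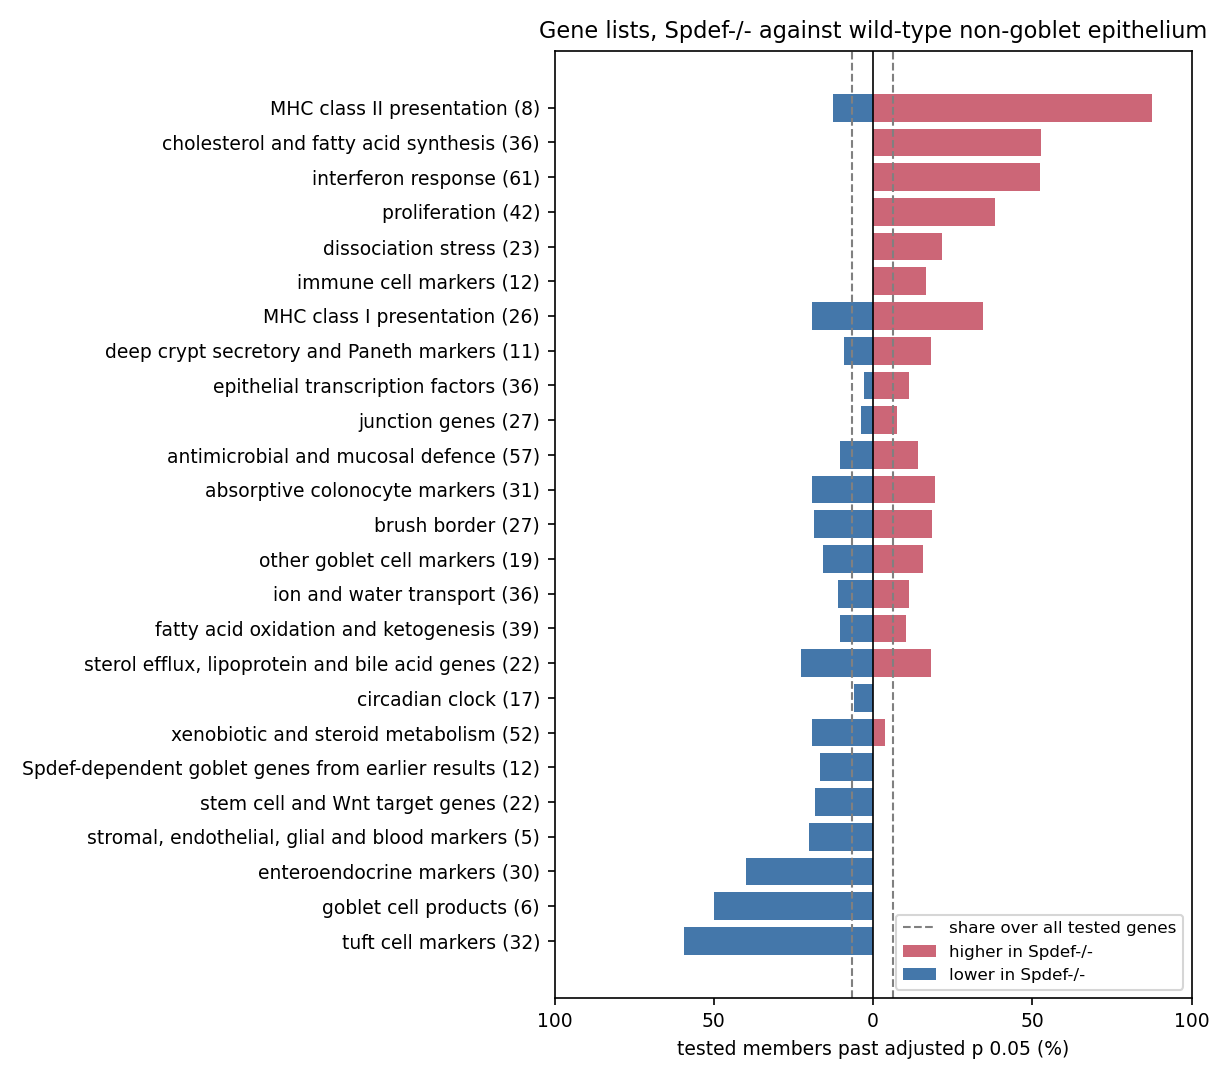
Share of the tested members of each gene list (number tested in parentheses) that was higher (right, red) or lower (left, blue) in Spdef-/- non-goblet epithelium at adjusted p under 0.05, in percent of tested members. Dashed lines mark the shares over all tested genes, 6.09% higher and 6.54% lower. Tuft and enteroendocrine markers extend to the left without a bar to the right, and cholesterol synthesis, interferon response and proliferation genes to the right without a bar to the left.

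Tuft cell genes were lower in Spdef-/- epithelium. Of 32 tested tuft cell markers 19 fell and none rose, with a median log2 difference of -1.18, against 6.54% of all tested genes lower. In a mixed bulk sample, fewer cells of a type and less RNA per cell cannot be told apart, here and in the results that follow. The number of lower members ran over 13–20 as each library was left out. Wild-type library 14 stood highest, with a median of 0.39 above the wild-type mean on the log2 scale, and the Spdef-/- libraries 4, 6, 8 and 20 had medians of -0.74, -0.80, -0.88 and -1.14.

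Trpm5, the cation channel through which tuft cells depolarise on taste-receptor signals, was at 10.3, 8.93, 16.4 and 10.1 CPM in wild type and 3.64, 2.68, 2.86 and 1.98 CPM in Spdef-/-. Every Spdef-/- library lay below every wild-type library, a 4.01-fold difference (log2 -2.0, SE 0.24, adjusted p = 3.73e-05). Dclk1, a kinase used as the standard tuft cell marker, was at 18.6, 15.3, 35.3 and 15.7 CPM in wild type and 6.06, 4.37, 5.07 and 3.13 CPM in Spdef-/-. Its wild-type library 14 was far above the other wild-type libraries, and the groups did not overlap (log2 -2.16, SE 0.35, adjusted p = 0.00129). Avil, the actin-binding advillin of the tuft cell apex, was at 7.48, 8.69, 12.5 and 8.37 CPM in wild type and 3.96, 3.198, 3.704 and 3.23 CPM in Spdef-/- and again the groups were apart (log2 -1.38, SE 0.19, adjusted p = 0.000164). Sh2d7, an SH2-domain adaptor, was at 3.99, 4.19, 7.26 and 4.63 CPM in wild type and 1.66, 0.849, 0.585 and 0.313 CPM in Spdef-/-, and it was lowest in Spdef-/- 20 (log2 -2.47, SE 0.39, adjusted p = 0.000573).

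Genes of taste-type signalling and of lipid mediators were among those that fell. Gnat3, the taste G protein gustducin, fell from 1.09 ± 0.526 CPM to 0.204 ± 0.1301 CPM (log2 -2.31, adjusted p = 0.0032), and Plcb2, the phospholipase that acts downstream of it, from 4.59 ± 1.904 CPM to 1.303 ± 0.497 CPM (log2 -1.75, adjusted p = 0.00201). Tas1r3, a subunit of sweet and umami receptors, fell less (log2 -0.58, adjusted p = 0.0455), and the call ended without wild-type 12, 14 or 17 or Spdef-/- 4, 8 or 20 (adjusted p = 0.053–0.144). Among eicosanoid enzymes, Hpgds, the haematopoietic prostaglandin D synthase, was at 17.7, 19.2, 21.3 and 15.6 CPM in wild type and 6.89, 9.399, 7.21 and 11.3 CPM in Spdef-/-, with no overlap (log2 -1.1, SE 0.15, adjusted p = 0.000125). Ptgs1, cyclooxygenase 1, which supplies its substrate, fell from 1.52 ± 0.499 CPM to 0.237 ± 0.121 CPM (log2 -2.56, SE 0.36, adjusted p = 0.000169). The leukotriene genes Alox5 (log2 -1.49, adjusted p = 0.0584) and Alox5ap (log2 -1.67, adjusted p = 0.0624) did not pass. Chat, which makes acetylcholine, fell from 0.8699 ± 0.362 CPM to 0.255 ± 0.136 CPM (log2 -1.75, adjusted p = 0.0269), and the call ended without wild-type 12 or 14 or Spdef-/- 8 (adjusted p = 0.0522–0.082).

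Regulators were less uniform. Spib, an ETS factor of tuft and of M cells, fell from 4.49 ± 1.04 CPM to 1.85 ± 0.286 CPM (log2 -1.28, adjusted p = 0.00091), while Pou2f3, the factor required to form tuft cells, did not pass (log2 -1.05, adjusted p = 0.0741). Kinases shared with blood cells, Matk (log2 -1.68, adjusted p = 0.00157) and Pik3cg (log2 -1.08, adjusted p = 0.00985), fell. Rgs13, a regulator of G protein signalling, fell from 3.06 ± 1.95 CPM to 0.792 ± 0.353 CPM (log2 -1.89, adjusted p = 0.018), and the call ended without wild-type 14 (adjusted p = 0.0572). Pan-leukocyte Ptprc (log2 0.19, adjusted p = 0.573) did not pass, and none of the 12 tested immune cell markers fell. The part of blood cells in the falls of Matk and Pik3cg was not tested. Outside the list, Dnahc5, an axonemal dynein heavy chain (now Dnah5), was at 12.3, 11.4, 25.4 and 12.8 CPM in wild type and 4.08, 3.66, 3.38 and 1.67 CPM in Spdef-/-, highest in wild-type library 14 like Dclk1 (log2 -2.23, SE 0.30, adjusted p = 0.000185). Prss23, a serine protease, was at 14.8, 20.7, 18.9 and 13.9 CPM in wild type and 4.08, 6.07, 4.74 and 4.59 CPM in Spdef-/- (log2 -1.8, SE 0.17, adjusted p = 3.31e-06).

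**Figure D2:**
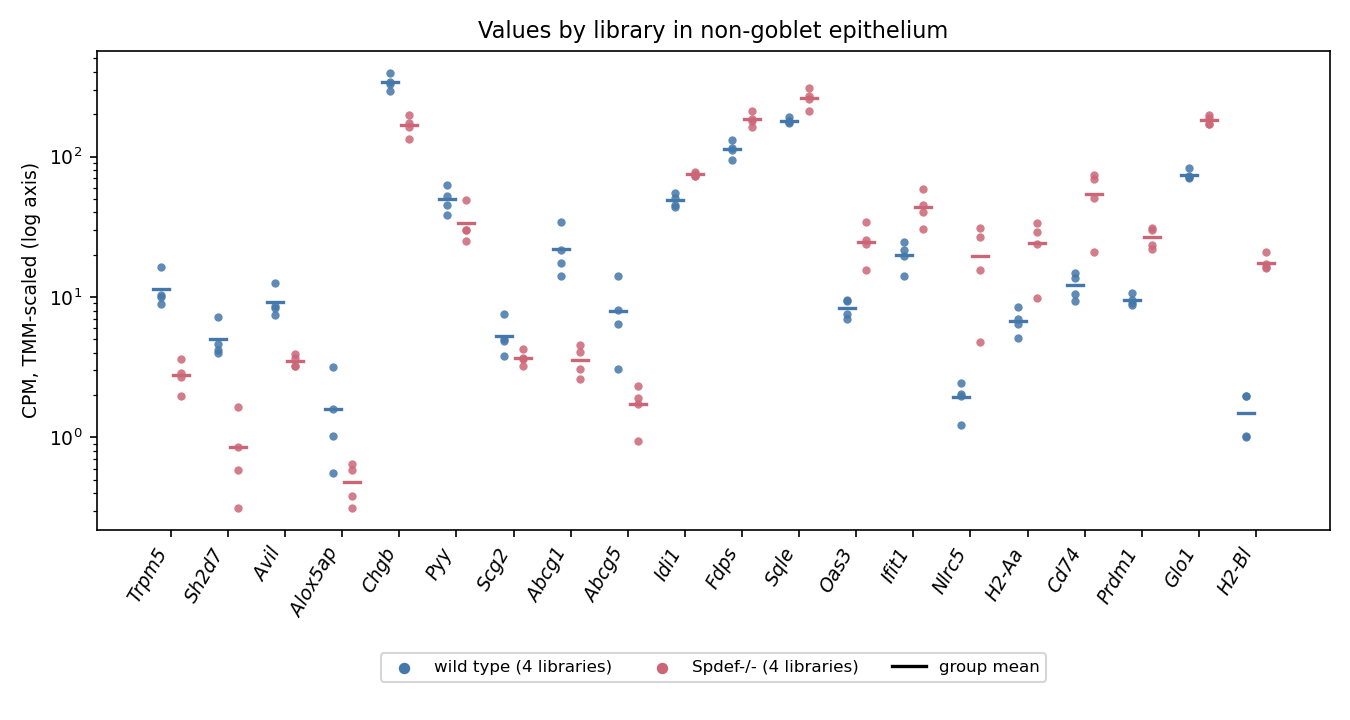
CPM (TMM-scaled, log axis) of 20 genes in the 8 non-goblet libraries, wild type in blue and Spdef-/- in red, 1 point per library and a bar at the group mean. Trpm5, Sh2d7 and Avil have all red points below all blue ones, whereas Alox5ap and Pyy overlap, and Nlrc5, Cd74 and H2-Aa have 1 red point, library 20, well below the other red points.

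Enteroendocrine genes were lower as well. Of 30 tested enteroendocrine markers 12 fell (40.0%, against 6.54% of all tested genes) and none rose, with a median log2 difference of -0.74. The count was 7 without wild-type 17. The Spdef-/- medians were -0.29, -0.67, -0.67 and -0.96 in libraries 4, 6, 8 and 20, so library 4 was nearest to wild type. Granins pack hormone granules. Chga, chromogranin A, was at 90.6, 105, 110.2 and 97.6 CPM in wild type and 55.7, 48.2, 45.7 and 32.6 CPM in Spdef-/- and Chgb, chromogranin B, at 293, 339.6, 396 and 331 CPM in wild type and 197, 174, 163 and 133 CPM in Spdef-/-. Neither pair of groups overlapped (Chga log2 -1.14, SE 0.15, adjusted p = 0.000112, and Chgb log2 -1.03, SE 0.14, adjusted p = 0.000206).

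Hormones and amines of several enteroendocrine types were lower. Tph1, which makes serotonin in enterochromaffin cells, was at 50.8, 53.2, 55.96 and 55.9 CPM in wild type and 33.7, 25.3, 24.1 and 20.96 CPM in Spdef-/-, with every Spdef-/- library below wild type (log2 -1.05, SE 0.18, adjusted p = 0.00125). Sst, the somatostatin of D cells, was at 5.07, 4.74, 3.701 and 6.17 CPM in wild type and 1.98, 1.31, 2.01 and 0.834 CPM in Spdef-/- (log2 -1.63, SE 0.26, adjusted p = 0.000637). Gcg, the proglucagon of L cells, fell from 50.2 ± 6.399 CPM to 25.2 ± 7.14 CPM (log2 -0.98, adjusted p = 0.00158), and its L-cell partner Pyy did not pass (log2 -0.57, adjusted p = 0.101). Insl5, a hormone of distal L cells, fell (log2 -0.85, adjusted p = 0.0391), and the call ended without wild-type 12, 14 or 17 or Spdef-/- 6, 8 or 20 (adjusted p = 0.0635–0.0952). Secretin, Sct, fell from 3.197 ± 0.7897 CPM to 1.86 ± 0.405 CPM (log2 -0.76, adjusted p = 0.0209), and the call ended without wild-type 17 (adjusted p = 0.0841). Prohormone processing followed in part. Pcsk1, a prohormone convertase, fell from 7.34 ± 1.68 CPM to 4.09 ± 0.2497 CPM (log2 -0.84, adjusted p = 0.00194) and Cpe, carboxypeptidase E, from 26.9 ± 4.97 CPM to 14.3 ± 2.93 CPM (log2 -0.9, adjusted p = 0.00315). Of the lineage factors Neurog3 (log2 -0.98, adjusted p = 0.132), Neurod1 (log2 -0.55, adjusted p = 0.156) and Pax6 (log2 -0.66, adjusted p = 0.28) did not pass, and Pax4 did (log2 -1.11, adjusted p = 0.0452), although the call ended without wild-type 10, 12, 14 or 17 or Spdef-/- 4, 6 or 8 (adjusted p = 0.0597–0.0991).

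Cholesterol synthesis genes rose, while some transporters of sterols fell. Of 36 tested cholesterol and fatty acid synthesis genes 19 rose and none fell, with a median log2 difference of 0.33 against 0.005 over all genes and 6.09% of all genes higher. The number of higher members ran over 13–20 as each library was left out, and it was 11 without wild-type 17 and Spdef-/- 20 together. In contrast with the interferon genes below, the Spdef-/- libraries were close to each other, with medians of 0.42, 0.26, 0.33 and 0.28.

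Genes of the mevalonate steps rose by less than 2-fold. Hmgcs1, which makes HMG-CoA, rose from 685 ± 44.4 CPM to 1079.6 ± 109 CPM (log2 0.66, adjusted p = 0.00342). Idi1, the isopentenyl diphosphate isomerase, was at 45.3, 50.6, 55.4 and 43.5 CPM in wild type and 77.5, 73.1, 72.7 and 74.98 CPM in Spdef-/-, and Fdps, which makes farnesyl diphosphate, at 115, 94.7, 132 and 111 CPM in wild type and 213, 178, 184 and 161 CPM in Spdef-/-. All Spdef-/- libraries were above all wild-type libraries for both genes (Idi1 log2 0.61, SE 0.10, adjusted p = 0.000936, and Fdps log2 0.7, SE 0.12, adjusted p = 0.00119). Later steps rose too. Mean levels went from 180.001 CPM to 262 CPM for Sqle, squalene epoxidase (log2 0.54, adjusted p = 0.00223), from 249 CPM to 336 CPM for the demethylase Cyp51 (log2 0.43, adjusted p = 0.00268), from 290.1 CPM to 415 CPM for Sc4mol, now Msmo1 (log2 0.52, adjusted p = 0.00246) and from 36.5 CPM to 52.9 CPM for Nsdhl (log2 0.54, adjusted p = 0.00235). Dhcr7, the last reductase, did not pass (log2 -0.01, adjusted p = 0.944). Nor did the regulator genes Srebf1 (log2 -0.14, adjusted p = 0.519) and Srebf2 (log2 0.12, adjusted p = 0.447).

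Fatty acid synthesis contributed fewer genes. Scd1, the stearoyl-CoA desaturase, had the largest gain of the list and was at 59.5, 46.3, 67.2 and 47.1 CPM in wild type and 176, 149.7, 113 and 139 CPM in Spdef-/-. Its lowest Spdef-/- library, 8, was still above its highest wild-type library, 14 (log2 1.39, SE 0.18, adjusted p = 0.000139). Elovl5, a fatty acid elongase, rose from 64.8 ± 6.81 CPM to 88.03 ± 7.79 CPM (log2 0.44, adjusted p = 0.00292), whereas Fasn (log2 0.19, adjusted p = 0.282) and Acly (log2 -0.04, adjusted p = 0.844) did not pass.

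Of the transporters that move sterols out of the cell, Abcg1, Abcg5, Abcg8 and Abca1 fell. Abcg1, which moves cholesterol to lipoproteins, was at 21.6, 14.1, 17.6 and 34.1 CPM in wild type and 4.53, 3.07, 4.03 and 2.61 CPM in Spdef-/-. Wild-type libraries were widely spread, the Spdef-/- libraries were not, and the means differed 6.03-fold (log2 -2.59, SE 0.31, adjusted p = 8.41e-05). Abcg5 and Abcg8 form the heterodimer that returns plant sterols and cholesterol to the lumen. Abcg5 was at 8.05, 3.08, 6.46 and 14.2 CPM in wild type and 1.72, 1.89, 2.34 and 0.939 CPM in Spdef-/- (log2 -2.16, SE 0.37, adjusted p = 0.00138), and Abcg8 at 4.44, 1.82, 2.98 and 6.24 CPM in wild type and 0.638, 1.63, 1.04 and 0.939 CPM in Spdef-/- (log2 -1.85, SE 0.33, adjusted p = 0.00138). Wild-type 17 was highest and wild-type 12 lowest for all 3 transporters, and the Spdef-/- libraries were below all of these. Abcg5 and Abcg8 lie head to head on opposite strands and overlap, and the strand setting of the counting is not stated, so their reads cannot be fully told apart. Abca1, the efflux pump for apolipoprotein A1, fell from 22.7 ± 4.35 CPM to 14.7 ± 4.503 CPM (log2 -0.63, adjusted p = 0.0257), and the call ended without wild-type 10 or 17 or Spdef-/- 4 or 8 (adjusted p = 0.0648–0.0866). The nuclear receptor genes Nr1h2 (log2 -0.12, adjusted p = 0.537) and Nr1h3 (log2 0.02, adjusted p = 0.943), which encode the LXR sterol sensors, did not pass, and neither did Mylip (log2 -0.44, adjusted p = 0.0781), another LXR target. Over the whole list of sterol efflux, lipoprotein and bile acid genes 4 of 22 rose and 5 fell (40.9% changed, against 12.6% of all genes). Without Spdef-/- 6 the lower members were 8. Slc10a2, the ileal bile acid importer, fell from 9.53 ± 1.56 CPM to 5.26 ± 0.691 CPM (log2 -0.85, adjusted p = 0.00421). Higher were Apoc2, an activator of lipoprotein lipase, at 6.53, 10.04, 8.27 and 8.52 CPM in wild type and 26.5, 20.8, 19.8 and 13.7 CPM in Spdef-/- (log2 1.29, SE 0.19, adjusted p = 0.000248), Apobec1, the editing enzyme of the apolipoprotein B transcript, from 91.1 ± 8.93 CPM to 141 ± 13.5 CPM (log2 0.63, SE 0.11, adjusted p = 0.0011), and Slc51b, a subunit of the basolateral bile acid exporter (log2 0.84, adjusted p = 0.00742).

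Fatty acid oxidation was split. Of 39 tested genes 4 rose and 4 fell (20.5% changed, against 12.6% of all genes, with a median log2 of -0.01). Acsl5, an acyl-CoA synthetase, was at 158, 141, 181 and 141 CPM in wild type and 261, 225, 226 and 236 CPM in Spdef-/- (log2 0.61, SE 0.09, adjusted p = 0.00024), and Acadl, the long-chain acyl-CoA dehydrogenase, at 120.3, 127, 121 and 123 CPM in wild type and 165, 159, 161 and 183 CPM in Spdef-/- (log2 0.44, SE 0.07, adjusted p = 0.000573). Both were higher in every Spdef-/- library. Ppara, the receptor that induces oxidation genes, fell from 24.5 ± 2.11 CPM to 18.6 ± 2.07 CPM (log2 -0.4, adjusted p = 0.0109). The lower count of this list was 1 without wild-type 17 or Spdef-/- 4, and 2 without wild-type 10 or 12 or Spdef-/- 8 or 20.

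Apart from lipids, a gene of iron uptake was among those of smallest p. Tfrc, the transferrin receptor, was at 303, 323, 366 and 271 CPM in wild type and 773, 1064, 717 and 824 CPM in Spdef-/-. Every Spdef-/- library was far above every wild-type library (log2 1.42, SE 0.14, adjusted p = 5.97e-06).

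Interferon-induced genes were higher in Spdef-/- epithelium, by amounts that differed between its libraries. Of 61 tested interferon response genes 32 rose (52.5%, against 6.09% of all tested genes) and none fell, with a median log2 difference of 0.79. Medians in Spdef-/- libraries 4, 6, 8 and 20 were 0.83, 1.02, 0.49 and 0.22, and the wild-type medians ran from -0.10 to 0.07. The number of higher members was 18 without wild-type 10, 21 without wild-type 12, 19 without wild-type 14, 20 without wild-type 17, 15 without Spdef-/- 4 and 18 without Spdef-/- 6.

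Among sensors and effectors of type I interferon, Oas3, Ifit1, Ifit2, Isg15 and Trim30a were above all wild-type libraries in every Spdef-/- library. Oas3, which makes the second messenger that activates RNase L, was at 6.97, 9.48, 9.29 and 7.56 CPM in wild type and 33.9, 25.5, 23.7 and 15.5 CPM in Spdef-/-, and the lowest Spdef-/- library was above the highest wild-type library (log2 1.58, SE 0.19, adjusted p = 3.67e-05). Ifit1, which binds uncapped viral RNA, was at 14.2, 24.5, 21.7 and 19.5 CPM in wild type and 58.8, 45.5, 40.4 and 30.3 CPM in Spdef-/- (log2 1.14, SE 0.21, adjusted p = 0.00202). Ifit2, its relative, was at 7.86, 6.87, 6.82 and 7.12 CPM in wild type and 36.5, 30.7, 21.2 and 11.8 CPM in Spdef-/- (log2 1.81, SE 0.27, adjusted p = 0.000549), with the same order of Spdef-/- libraries. Isg15, the ubiquitin-like modifier, rose from 4.92 ± 1.51 CPM to 13.9 ± 5.01 CPM (log2 1.52, adjusted p = 0.00218), and Trim30a, a ubiquitin ligase, was at 8.11, 9.01, 9.29 and 9.18 CPM in wild type and 14.99, 18.5, 12.3 and 15.7 CPM in Spdef-/- (log2 0.79, SE 0.14, adjusted p = 0.00138). Of the transcription factors of the pathway, Stat2 rose from a mean of 31.6 CPM to 50.8 CPM (log2 0.69, adjusted p = 0.0115). Irf7 (log2 -0.1, adjusted p = 0.647), Irf9 (log2 0.43, adjusted p = 0.16) and Mx1 (log2 -0.1, adjusted p = 0.707) did not pass.

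Genes of the guanylate-binding and immunity-related GTPase families, which attack the vacuoles of intracellular pathogens, had large and uneven gains. Iigp1 was at 1.902, 1.26, 0.653 and 1.69 CPM in wild type and 60.7, 81.5, 11.4 and 1.98 CPM in Spdef-/-. Spdef-/- libraries 4 and 6 were far above wild type and library 20 was just above the highest wild-type library (log2 4.82, SE 1.38, adjusted p = 0.0376), and the call ended without wild-type 10, 12, 14 or 17 or Spdef-/- 4 or 6 (adjusted p = 0.0689–0.0905). Irgm2 was at 15.97, 11.5, 12.05 and 14.9 CPM in wild type and 62.2, 89.5, 23.7 and 19.4 CPM in Spdef-/- (log2 1.85, SE 0.55, adjusted p = 0.0419), and the call ended without wild-type 10, 12, 14 or 17 or Spdef-/- 4 or 6 (adjusted p = 0.0792–0.108). Gbp3 was at 1.97, 3.71, 1.52 and 3.67 CPM in wild type and 16.3, 26.3, 6.95 and 5.63 CPM in Spdef-/- (log2 2.38, SE 0.62, adjusted p = 0.0216), and the call ended without wild-type 10 or 14 or Spdef-/- 4 or 6 (adjusted p = 0.0573–0.0647). Gm12250, also called Irgb10, was at 1.27, 1.26, 1.23 and 0.954 CPM in wild type and 18.9, 21.997, 6.56 and 2.19 CPM in Spdef-/- (log2 3.41, SE 0.79, adjusted p = 0.0123). With limma-voom none of the 4 genes passed (adjusted p = 0.0606–0.358, and 0.0787 for Gm12250). For all 4 genes libraries 4 and 6 were high, 8 intermediate and 20 close to wild type, and for Irgm2 and Gbp3 the values of 8 and 20 were close to each other. These genes have near-identical relatives, and reads shared between them make their values uncertain.

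Promoter sequences were searched for the core of the interferon-stimulated response element, TTTC and TTTC with any 2 bases between them, on both strands, in the window from 250 bases before to 50 bases after the start of each gene (RefSeq, GRCm38.p6). Of the 32 interferon genes that rose, 24 had a promoter sequence and 16 of these (66.7%) held the motif, as did 11 of 21 tested list members that did not pass (52.4%) and 3.99% of 27025 genes. A match describes letters only. The following windows of 61 bases lie upstream of the start of genes that rose, read 5′ to 3′ along the gene with the matches in capitals, and show where the motif lies. They are Oas3 at chr5:120777699-120777759 on the minus strand, Ifit1 at chr19:34640760-34640820 on the plus strand, Isg15 at chr4:156200861-156200921 on the minus strand, and Gbp2 at chr3:142620579-142620639 on the plus strand.
Oas3: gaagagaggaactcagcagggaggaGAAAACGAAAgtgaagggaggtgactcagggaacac
Ifit1: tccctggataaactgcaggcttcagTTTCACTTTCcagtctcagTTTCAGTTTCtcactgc
Isg15: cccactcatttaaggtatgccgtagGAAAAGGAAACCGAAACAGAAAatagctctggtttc
Gbp2: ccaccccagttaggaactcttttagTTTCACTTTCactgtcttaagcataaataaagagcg

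In these windows the first match starts 75 bases before the gene start for Oas3, 104 for Ifit1, 78 for Isg15 and 59 for Gbp2. Isg15 carries 3 overlapping matches and Ifit1 a pair. Gbp2 rose from 21.8 ± 2.43 CPM to 134 ± 109 CPM (log2 2.63, adjusted p = 0.0394), and the call ended without wild-type 10, 12, 14 or 17 or Spdef-/- 4 or 6 (adjusted p = 0.0737–0.112). The Spdef motif core CCGGAT, found in the promoters of 6.82% of genes, was in 2 of 24 interferon genes that rose, 0 of 17 tuft genes that fell and 0 of 11 sterol and fatty acid synthesis genes that rose. Of the tested members that did not pass it was in 1 of 21 interferon, 0 of 10 tuft and 3 of 14 synthesis genes (21.4%). The octamer ATGCAAAT of POU factors (1.97% of genes) was in 1 of the 17 tuft genes, Hpgds, and in 3 of 10 tested tuft genes that did not pass. CACCCCAC, a sterol regulatory element core (3.30% of genes), was in 1 of the 11 synthesis genes, Hmgcs1, and in 0 of 14 that did not pass. These 3 searches also read both strands.

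Class II antigen presentation genes had the same order of Spdef-/- libraries by list median as the interferon genes. All 8 of the MHC class II presentation genes that passed the low-count filter, of 12 in the table, changed, against 12.6% of all tested genes. Of these, 7 rose, and the list medians were 2.11, 2.31, 1.38 and 0.54 in Spdef-/- libraries 4, 6, 8 and 20. H2-Ab1, a class II beta chain, was at 5.96, 8.22, 6.68 and 6.902 CPM in wild type and 34.3, 37.7, 23.8 and 13.5 CPM in Spdef-/- (log2 1.99, SE 0.28, adjusted p = 0.000334). H2-Aa, the alpha chain, was at 6.97, 8.53, 5.08 and 6.46 CPM in wild type and 29.03, 33.5, 23.8 and 9.802 CPM in Spdef-/- (log2 1.84, SE 0.38, adjusted p = 0.00628). Cd74, the invariant chain, was at 13.8, 14.9, 9.44 and 10.5 CPM in wild type and 69.5, 73.6, 51.01 and 20.9 CPM in Spdef-/- (log2 2.16, SE 0.45, adjusted p = 0.00699). In each, Spdef-/- library 20 was nearest to wild type and no library overlapped. Ciita, the coactivator that switches class II genes on, was at 1.39, 1.501, 0.653 and 0.881 CPM in wild type and 6.57, 17.7, 2.53 and 2.29 CPM in Spdef-/- (log2 2.73, SE 0.81, adjusted p = 0.04), and the call ended without wild-type 10, 12, 14 or 17 or Spdef-/- 4 or 6 (adjusted p = 0.0717–0.118) and with limma-voom (adjusted p = 0.107). H2-DMb1, which loads peptides, was at 0.761, 1.11, 0.944 and 0.367 CPM in wild type and 5.93, 7.64, 4.16 and 1.36 CPM in Spdef-/- (log2 2.62, SE 0.40, adjusted p = 0.000441). Ctss, cathepsin S, which trims the invariant chain, went the other way, at 391, 429, 458 and 437 CPM in wild type and 324, 309, 305 and 303 CPM in Spdef-/- (log2 -0.47, SE 0.08, adjusted p = 0.000724). The markers of professional antigen-presenting cells that were tested did not pass, among them Itgam (log2 -0.01, adjusted p = 0.994), Csf1r (log2 -0.22, adjusted p = 0.666) and Cd68 (log2 -0.21, adjusted p = 0.67). Of all 12 tested immune cell markers 2 rose, Lcp1 and Igj, and none fell, with a median log2 difference of 0.31. That is 16.7% changed, against 12.6% of all tested genes. The 27 immune cell markers in the count table, with those below the filter, summed to 31.4–37.5 CPM in wild-type and 37.3–57.6 CPM in Spdef-/- libraries. The T cell markers Cd3e, Cd4 and Cd8a were counted below the filter. The part of immune cells in these gains was not tested.

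Class I genes moved in both directions. Of 26 tested class I genes 9 rose and 5 fell (53.8% changed, against 12.6% of all genes). Without Spdef-/- 20 the higher count was 14, and without wild-type 17 the lower count was 3. Nlrc5, the class I coactivator, was at 2.03, 2.45, 1.23 and 1.98 CPM in wild type and 26.7, 31.1, 15.5 and 4.797 CPM in Spdef-/-, with library 20 again lowest among Spdef-/- (log2 3.36, SE 0.74, adjusted p = 0.00918). B2m, the shared light chain, rose from 285 ± 6.57 CPM to 384 ± 60.7 CPM (log2 0.43, adjusted p = 0.0123), and the call ended without Spdef-/- 4 (adjusted p = 0.051). The classical heavy chains H2-K1 (log2 -0.21, adjusted p = 0.0612) and H2-D1 (log2 0.22, adjusted p = 0.0768) did not pass. Nonclassical genes differed in both directions. H2-Bl was at 1.01, 1.98, 1.02 and 1.98 CPM in wild type and 16.1, 17.1, 16.4 and 20.8 CPM in Spdef-/-, with narrow groups far apart (log2 3.56, SE 0.20, adjusted p = 4.52e-09). H2-T3, the thymus leukaemia antigen of intestinal epithelium, was at 11.5, 15.1, 11.8 and 11.3 CPM in wild type and 2.04, 4.895, 3.44 and 1.67 CPM in Spdef-/-, lower in every Spdef-/- library (log2 -2.01, SE 0.29, adjusted p = 0.000283). H2-Q2 was at 70.7, 68.4, 60.02 and 71.95 CPM in wild type and 47.3, 52.7, 44.6 and 33.8 CPM in Spdef-/- (log2 -0.6, SE 0.12, adjusted p = 0.00253) and H2-T10 at 0.887, 0.632, 0.871 and 1.32 CPM in wild type and 2.297, 2.48, 1.75 and 2.92 CPM in Spdef-/- (log2 1.32, SE 0.27, adjusted p = 0.00382). Of the 26 class I genes 19 lie within 20 Mb of Spdef, including all 5 that fell and 5 of the 9 that rose, and so do 5 of the 7 class II genes that rose. The H2- genes are close relatives, and reads may be assigned unevenly among them.

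**Figure D3:**
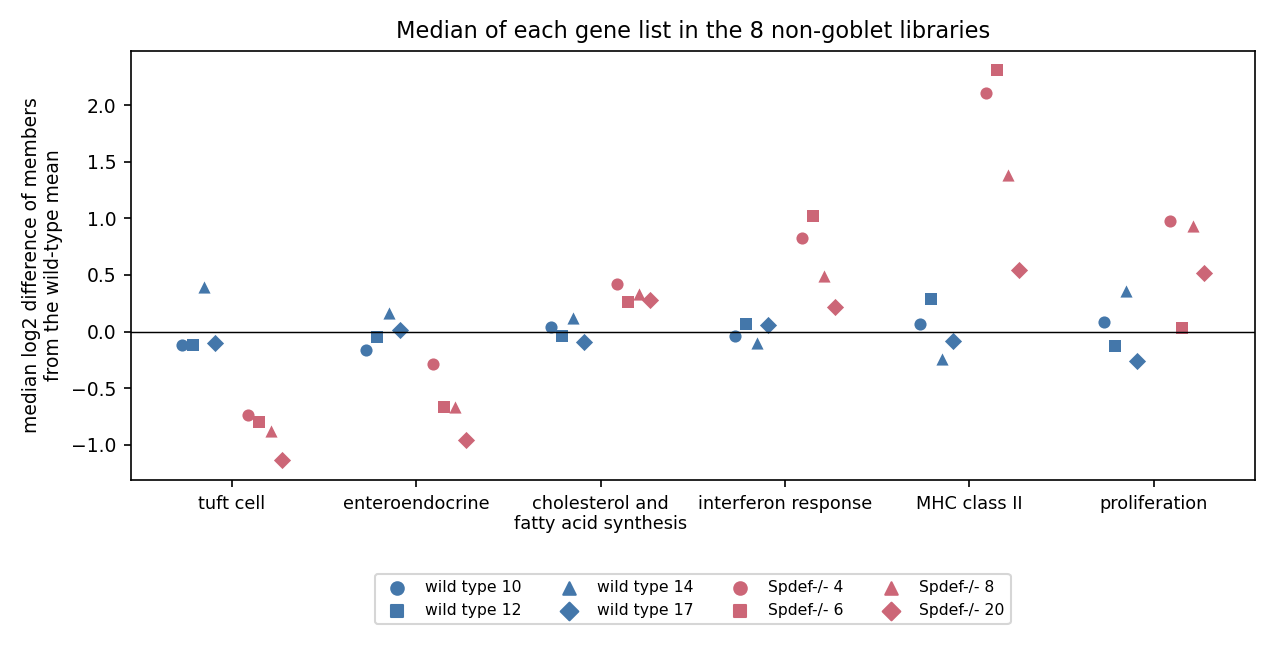
Median over the tested members of 6 gene lists of the log2 difference from the wild-type mean, 1 symbol per non-goblet library, wild type in blue and Spdef-/- in red. For every list but proliferation all red symbols lie on the same side of all blue symbols. Interferon and MHC class II medians run from libraries 6 and 4 down to library 20 (1.02 to 0.22 and 2.31 to 0.54), and the proliferation median of Spdef-/- 6 (0.03) lies among the wild-type values.

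Mitotic genes were higher in Spdef-/- epithelium, with library 6 near the wild-type level by list median. Of 42 tested proliferation genes 16 rose (38.1%, against 6.09% of all tested genes) and none fell, with a median log2 difference of 0.66. The Spdef-/- medians were 0.98, 0.03, 0.93 and 0.52 in libraries 4, 6, 8 and 20. The higher count was 9 without wild-type 10 or 12, 7 without wild-type 17, 5 without Spdef-/- 4 and 10 without Spdef-/- 8, and it was 9 with no filter on low counts. Cenpe, a kinetochore motor, was at 65.9, 78.7, 82.6 and 59.8 CPM in wild type and 145, 105, 133 and 134 CPM in Spdef-/- (log2 0.85, SE 0.13, adjusted p = 0.000572), and Ube2c, a ubiquitin-conjugating enzyme of mitotic exit, at 21.2, 18.6, 29.03 and 20.5 CPM in wild type and 63.8, 31.98, 52.4 and 38.7 CPM in Spdef-/- (log2 1.07, SE 0.23, adjusted p = 0.0072). For both genes library 6 was the lowest Spdef-/- library. Racgap1, a cytokinesis regulator, was at 40.5, 39.8, 47.2 and 33.4 CPM in wild type and 95.6, 51.2, 79.3 and 66.4 CPM in Spdef-/- (log2 0.86, SE 0.19, adjusted p = 0.00745), and Cdca8, a subunit of the chromosomal passenger complex, at 19.6, 17.1, 21.8 and 15.7 CPM in wild type and 37.2, 22.6, 35.999 and 30.4 CPM in Spdef-/- (log2 0.77, SE 0.17, adjusted p = 0.00742). Mki67, the antigen used to stain dividing cells, rose from 396 ± 58.2 CPM to 586 ± 95.02 CPM (log2 0.57, adjusted p = 0.00946). DNA replication genes such as Mcm2 (log2 0.08, adjusted p = 0.887), Mcm5 (log2 0.13, adjusted p = 0.846) and Pcna (log2 0.05, adjusted p = 0.911) did not pass.

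Stem cell and Wnt target genes did not follow the mitotic genes. Of 22 tested, 4 fell (18.2%, against 6.54% of all tested genes) and none rose. The lower count was 2 without wild-type 17, 2 in the fit of the 8 non-goblet libraries, and 1 without wild-type 17 and Spdef-/- 20 together. Lgr5, the receptor that marks crypt base stem cells, was at 13.2, 13.4, 18.7 and 12.8 CPM in wild type and 8.102, 10.9, 10.01 and 7.195 CPM in Spdef-/-, and the lowest wild-type library was above the highest Spdef-/- library (log2 -0.67, SE 0.16, adjusted p = 0.0123). Ephb3, an ephrin receptor that positions crypt cells, was at 56.2, 56.7, 53.3 and 61.9 CPM in wild type and 43.1, 43.4, 46.2 and 39.8 CPM in Spdef-/- (log2 -0.4, SE 0.10, adjusted p = 0.0153), and the call ended without wild-type 17 (adjusted p = 0.0538). Tnfrsf19, also called Troy, fell from 0.884 ± 0.276 CPM to 0.171 ± 0.145 CPM (log2 -2.25, adjusted p = 0.0108). Msi1, an RNA-binding protein, was counted at under 0.5 CPM in every library (log2 -1.88, adjusted p = 0.0448), and the call ended without wild-type 10, 12 or 17 or Spdef-/- 4, 6, 8 or 20 (adjusted p = 0.0517–0.191). Axin2 (log2 -0.19, adjusted p = 0.332) and Myc (log2 -0.03, adjusted p = 0.925) did not pass.

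Absorptive colonocyte genes changed in both directions, 6 of 31 up and 6 down (38.7% changed, against 12.6% of all genes), with a median log2 difference of -0.17. The higher count was 3 without wild-type 10 or 17 or Spdef-/- 4, and the lower count 3 without wild-type 17. Krt20, a keratin of surface colonocytes, rose from 1183 ± 77.01 CPM to 1945 ± 570.1 CPM (log2 0.72, adjusted p = 0.00766). Slc9a3, the apical sodium-proton exchanger NHE3, was at 226, 321, 231 and 224 CPM in wild type and 406, 361, 425 and 303 CPM in Spdef-/-; wild-type 12 overlapped the Spdef-/- range (log2 0.58, SE 0.15, adjusted p = 0.0162), and the call ended without wild-type 10 or 17 or Spdef-/- 4 (adjusted p = 0.0585–0.0611). Cyp2c55, a cytochrome P450 of the colon epithelium, was at 927, 1097, 926 and 1197 CPM in wild type and 448, 488, 361 and 414 CPM in Spdef-/-, and the groups were far apart (log2 -1.28, SE 0.19, adjusted p = 0.000604). Slc34a2, a phosphate transporter, was at 274, 219.99, 287 and 253 CPM in wild type and 168, 165, 158 and 151 CPM in Spdef-/- (log2 -0.68, SE 0.14, adjusted p = 0.00466). Guca2a, the guanylin prohormone, was at 1179, 1360.5, 1168 and 1206 CPM in wild type and 1138, 1065, 1023 and 931 CPM in Spdef-/- (log2 -0.24, SE 0.08, adjusted p = 0.0483), and the call ended without wild-type 10, 12 or 17 or Spdef-/- 8 or 20 (adjusted p = 0.067–0.148). The chloride exchanger Slc26a3 (log2 -0.35, adjusted p = 0.142), the aquaporin Aqp8 (log2 -0.14, adjusted p = 0.617) and the carbonic anhydrases Car1 (log2 0.26, adjusted p = 0.362) and Car4 (log2 -0.59, adjusted p = 0.094) did not pass.

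Brush border genes changed in both directions. Of 27 tested genes 5 rose and 5 fell (37.0% changed, against 12.6% of all genes). The higher count was 3 without wild-type 14 or 17, and the lower count was 9 with upper-quartile factors and 9 with DESeq2. The members that rose were Vil1 (log2 0.41, adjusted p = 0.00284), Pls1 (log2 0.35, adjusted p = 0.00414), Myo1a (log2 0.26, adjusted p = 0.0232) and Ezr (log2 0.37, adjusted p = 0.0255), which bundle actin or tie it to the membrane, and the cadherin Cdh17 (log2 0.37, adjusted p = 0.00922). For Ezr the call ended without wild-type 10, 14 or 17 or Spdef-/- 4 or 8 (adjusted p = 0.0506–0.103), and for Myo1a the call ended without wild-type 14 or 17 (adjusted p = 0.0533–0.0645). Peptidases of the membrane were among those that fell. Mep1a, the meprin alpha subunit, was at 547, 583, 578 and 569 CPM in wild type and 266, 294, 274 and 289.8 CPM in Spdef-/-, with narrow groups far apart (log2 -1.02, SE 0.11, adjusted p = 1.92e-05). Naaladl1, a dipeptidyl peptidase, was at 21.6, 19.99, 23.2 and 24.4 CPM in wild type and 9.38, 7.702, 8.71 and 9.49 CPM in Spdef-/- (log2 -1.34, SE 0.11, adjusted p = 5.43e-07). Ggt1, gamma-glutamyltransferase, was at 4.63, 3.95, 4.57 and 5.07 CPM in wild type and 1.21, 0.783, 1.04 and 0.209 CPM in Spdef-/- (log2 -2.4, SE 0.34, adjusted p = 0.000186). Baiap2l2, a membrane-bending protein of microvilli, was at 48.9, 39.4, 43.9 and 44.5 CPM in wild type and 24.4, 26.2, 32.6 and 27.1 CPM in Spdef-/- (log2 -0.68, SE 0.10, adjusted p = 0.000171), and Cdhr5, a protocadherin of microvillus tips, at 803, 883, 849.95 and 849.5 CPM in wild type and 675, 639, 713 and 605 CPM in Spdef-/- (log2 -0.36, SE 0.07, adjusted p = 0.00189). Anpep (log2 -0.8, adjusted p = 0.0598) and Dpp4 (log2 0.15, adjusted p = 0.202) did not pass.

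Ion and water transport changed in 8 of 36 tested genes (22.2%, against 12.6% of all genes), 4 in each direction. The higher count was 1 without wild-type 10, wild-type 17 or Spdef-/- 4 and 2 without wild-type 14 or Spdef-/- 8, and the lower count 2 without wild-type 10, 14 or 17. Slc4a4, the sodium bicarbonate cotransporter of the basolateral membrane, was at 208, 214, 190.2 and 288 CPM in wild type and 107, 156, 125 and 126 CPM in Spdef-/- (log2 -0.81, SE 0.13, adjusted p = 0.000886). Slc12a7, a potassium chloride cotransporter, was at 165, 159, 152 and 171 CPM in wild type and 120.4, 132, 116 and 121 CPM in Spdef-/- (log2 -0.41, SE 0.07, adjusted p = 0.000932). Both were below wild type in every Spdef-/- library. Aqp4, a water channel, was at 1278, 1183, 1036 and 1095 CPM in wild type and 1512, 1662, 1373 and 1622 CPM in Spdef-/- and above wild type in every library (log2 0.43, SE 0.09, adjusted p = 0.00367). Outside this list S100g, the calcium buffer calbindin D9k, was at 32.6, 27.9, 37.96 and 45.9 CPM in wild type and 6.89, 6.46, 7.28 and 12.3 CPM in Spdef-/- (log2 -2.16, SE 0.22, adjusted p = 1.27e-05), with Spdef-/- 20 the highest of a group that stayed under the wild-type range.

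Xenobiotic and steroid metabolism leaned downward, with 10 of 52 tested genes lower and 2 higher (23.1% changed, against 12.6% of all genes). Without wild-type 14 the higher count was 5. Aldh1a1, which makes retinoic acid, was at 51.3, 54.999, 48.6 and 53.9 CPM in wild type and 27.6, 26.2, 26.8 and 25.3 CPM in Spdef-/- (log2 -0.98, SE 0.09, adjusted p = 3.05e-06). The carboxylesterase Ces1f was at 44.1, 41.5, 42.5 and 39.9 CPM in wild type and 20.2, 20.1, 24.4 and 18.98 CPM in Spdef-/- (log2 -1.0, SE 0.11, adjusted p = 9.74e-06) and Ces2a at 139.9, 161, 172 and 147 CPM in wild type and 81.1, 97.1, 99.6 and 84.9 CPM in Spdef-/- (log2 -0.77, SE 0.09, adjusted p = 1.59e-05), and both groups were tight and apart. Cyp2d12, a cytochrome P450 with near-identical relatives, was at 78.1, 52.2, 71.1 and 113 CPM in wild type and 10.8, 28.9, 10.2 and 19.2 CPM in Spdef-/- (log2 -2.19, SE 0.34, adjusted p = 0.000985). Ugt1a1, which conjugates bilirubin and shares exons with the rest of its family, fell from 8.02 ± 1.37 CPM to 3.63 ± 0.854 CPM (log2 -1.12, adjusted p = 0.00103). The higher members were Gsta1, a glutathione transferase (log2 0.97, adjusted p = 0.0171), and Glo1, described with the neighbours of Spdef. For Gsta1 the call ended without wild-type 12 or Spdef-/- 8 (adjusted p = 0.0523–0.068).

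Mucosal defence genes changed in both directions, 8 of 57 up and 6 down (24.6% changed, against 12.6% of all genes, 6.09% higher and 6.54% lower), and the higher count was 5 without wild-type 17. Ly6c1 was at 1.65, 1.42, 1.02 and 1.39 CPM in wild type and 21.5, 9.99, 14.2 and 5.74 CPM in Spdef-/- (log2 3.23, SE 0.44, adjusted p = 0.000228), and Ly6e at 57.6, 40.2, 55.8 and 50.2 CPM in wild type and 91.3, 104, 86.1 and 64.7 CPM in Spdef-/- (log2 0.76, SE 0.14, adjusted p = 0.00252). Both are small membrane-anchored proteins induced by interferons, and both were lowest in library 20 among the Spdef-/- libraries. Saa1, serum amyloid A, was at 1236, 1111, 1165 and 1376 CPM in wild type and 727, 481, 834 and 568 CPM in Spdef-/- (log2 -0.91, SE 0.17, adjusted p = 0.00307). Mptx1, a mucosal pentraxin that is abundant in goblet cells (5114 and 2015 CPM in wild type and Spdef-/-), was at 15.1, 12.2, 30.7 and 14.8 CPM in wild type and 4.34, 5.87, 4.81 and 5.32 CPM in Spdef-/- in the non-goblet fraction (log2 -1.84, SE 0.35, adjusted p = 0.00364). The lectins Reg3b (log2 3.34, adjusted p = 0.12) and Reg3g (log2 2.2, adjusted p = 0.128) did not pass. Lpo, lactoperoxidase, was at 15.5, 12.5, 20.3 and 12.8 CPM in wild type and 39.2, 33.7, 36.6 and 35.7 CPM in Spdef-/-, higher in every Spdef-/- library (log2 1.25, SE 0.14, adjusted p = 2.13e-05).

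Of 36 tested transcription factors of the epithelium 4 rose and 1 fell. In either direction 13.9% changed, against 12.6% of all tested genes (6.09% higher and 6.54% lower). The higher count was 2 without wild-type 10 or 17 or Spdef-/- 20. Prdm1, which encodes the repressor Blimp-1 of the immature gut epithelium, was at 9.13, 9.56, 8.78 and 10.6 CPM in wild type and 30.8, 23.4, 30.1 and 22.1 CPM in Spdef-/-. The wild-type libraries were close together and every Spdef-/- library lay far above them (log2 1.49, SE 0.14, adjusted p = 2.77e-06). Creb3l3, a membrane-anchored factor of lipid metabolism, was at 6.78, 7.67, 6.096 and 6.02 CPM in wild type and 10.8, 9.66, 13.97 and 12.2 CPM in Spdef-/- (log2 0.81, SE 0.15, adjusted p = 0.00193). Id2, an inhibitor of basic helix-loop-helix factors, was at 24.8, 30.5, 21.2 and 23.9 CPM in wild type and 32.7, 32.2, 32.2 and 40.6 CPM in Spdef-/- (log2 0.45, SE 0.13, adjusted p = 0.0239), and the call ended without wild-type 10, 14 or 17 or Spdef-/- 20 (adjusted p = 0.0563–0.0718). Rara, a retinoic acid receptor, was at 30.3, 23.2, 25.2 and 29.5 CPM in wild type and 17.8, 15.3, 24.9 and 21.4 CPM in Spdef-/- with overlapping groups (log2 -0.45, SE 0.14, adjusted p = 0.0358), and the call ended without wild-type 10 or 17 or Spdef-/- 4 or 6 (adjusted p = 0.077–0.106). Cdx2 (log2 0.1, adjusted p = 0.603), Hnf4a (log2 0.07, adjusted p = 0.53), Klf4 (log2 0.22, adjusted p = 0.216) and Hes1 (log2 -0.04, adjusted p = 0.902) did not pass.

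Among the genes of largest change or smallest p were several that belong to none of these groups. AI747448, now Clca4b, a chloride channel accessory family member, was at 9.699, 14.5, 7.91 and 7.86 CPM in wild type and 153, 49.5, 134 and 56.6 CPM in Spdef-/-, with libraries 4 and 8 above 6 and 20 (log2 3.3, SE 0.37, adjusted p = 7.52e-05). Gpr110, the adhesion receptor Adgrf1, was at 8.11, 7.51, 4.28 and 5.65 CPM in wild type and 50.2, 35.7, 45.6 and 27.4 CPM in Spdef-/- (log2 2.64, SE 0.25, adjusted p = 9.71e-06). Fer1l4, a ferlin pseudogene, was at 7.16, 7.902, 5.88 and 7.195 CPM in wild type and 23.4, 20.9, 30.5 and 21.5 CPM in Spdef-/- (log2 1.78, SE 0.13, adjusted p = 2.72e-07), and Ckap4, a membrane protein of the endoplasmic reticulum, at 21.9, 18.4, 23.7 and 19.4 CPM in wild type and 38.7, 37.6, 35.3 and 34.8 CPM in Spdef-/- (log2 0.81, SE 0.09, adjusted p = 1.46e-05). Each of these was higher in all Spdef-/- libraries.

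Genes lower in all Spdef-/- libraries included Fndc5, the precursor of irisin, at 28.7, 29.001, 38.5 and 34.7 CPM in wild type and 6.12, 6.46, 7.02 and 9.28 CPM in Spdef-/- (log2 -2.2, SE 0.20, adjusted p = 3.05e-06), and Bmp3, an inhibitory member of the bone morphogenetic proteins, at 71.1, 68.8, 80.1 and 81.3 CPM in wild type and 30.5, 31.004, 25.9 and 33.5 CPM in Spdef-/- (log2 -1.32, SE 0.11, adjusted p = 4.41e-07). Sycn, syncollin of secretory granules, was at 206, 250.3, 219.9 and 189 CPM in wild type and 98.4, 96.3, 97.3 and 82.8 CPM in Spdef-/- (log2 -1.21, SE 0.09, adjusted p = 3.79e-07). Asb11, an adaptor of a ubiquitin ligase, was at 10.4, 11.7, 13.5 and 11.2 CPM in wild type and 2.17, 3.52, 2.08 and 2.09 CPM in Spdef-/- (log2 -2.23, SE 0.21, adjusted p = 2.77e-06), and Slc43a3, a nucleobase and fatty acid transporter, at 6.53, 7.35, 7.33 and 7.64 CPM in wild type and 1.85, 2.28, 2.34 and 1.15 CPM in Spdef-/- (log2 -1.88, SE 0.21, adjusted p = 2.03e-05). The adhesion receptors Cd97, now Adgre5, at 45.8, 40.6, 48.9 and 43.6 CPM in wild type and 22.7, 18.1, 20.1 and 25.3 CPM in Spdef-/- (log2 -1.06, SE 0.09, adjusted p = 1.53e-06), and Gpr124, now Adgra2, at 6.59, 5.77, 6.97 and 8.81 CPM in wild type and 1.79, 1.57, 2.53 and 1.88 CPM in Spdef-/- (log2 -1.85, SE 0.24, adjusted p = 8.41e-05), fell as well. Plekha1, a phosphoinositide-binding adaptor, was at 169.6, 193, 200.02 and 176 CPM in wild type and 105, 115, 104 and 108 CPM in Spdef-/- (log2 -0.78, SE 0.08, adjusted p = 4.36e-06), and the uncharacterised 5430427M07Rik at 41.1, 49.8, 42.1 and 41.8 CPM in wild type and 11.9, 17.3, 12.5 and 13.9 CPM in Spdef-/- (log2 -1.65, SE 0.14, adjusted p = 5.43e-07).

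A pair of genes fell unevenly. Slc15a2, a peptide transporter, was at 10.1, 14.3, 5.81 and 11.01 CPM in wild type and 0.0638, 0, 3.31 and 2.19 CPM in Spdef-/-, and libraries 4 and 6 had almost no counts while 8 and 20 had some (log2 -2.95, SE 0.89, adjusted p = 0.0437). Its log2 difference was -4.16 without Spdef-/- 8, and the call ended without wild-type 10, 12 or 17 or Spdef-/- 4, 6 or 20 (adjusted p = 0.0601–0.121). Mettl7a2, a methyltransferase-like protein, was at 8.11, 7.902, 9.22 and 9.84 CPM in wild type and 1.47, 4.6996, 0.9097 and 1.46 CPM in Spdef-/-, with library 6 highest (log2 -2.01, SE 0.37, adjusted p = 0.00224, and log2 -2.79 without library 6).

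Genes near Spdef on chromosome 17 were examined separately, because the groups differ by an allele there. Spdef lies at chr17:27714352-27728955 of GRCm38. Within 20 Mb of it 71 of 470 tested genes (15.1%) changed, against 12.9% on the rest of chromosome 17 and 12.5% on other chromosomes. Changes of at least 2-fold made up 6.17%, 1.55% and 2.77% of tested genes in these 3 sets, and 4 of the 20 genes of smallest p lay within the 20 Mb. Glo1, glyoxalase 1, which clears methylglyoxal, lies 2.86 Mb away and was at 72.8, 70.7, 82.3 and 71.1 CPM in wild type and 199, 169.6, 189 and 171 CPM in Spdef-/-. The groups were tight and far apart, a 2.46-fold difference (log2 1.3, SE 0.08, adjusted p = 8.87e-09). Glo1 overlaps Dnahc8 on the other strand, which also rose (log2 1.03, adjusted p = 7.97e-05). The strand setting of the counting is not stated, so the reads of Glo1 and Dnahc8 cannot be fully told apart. Gm8801, 8.22 Mb away, had 1 count over the wild-type libraries and 215 over the Spdef-/- libraries, a ratio of 214 scaled to library size (95% counting interval 38.1–8510). The wild-type count came from library 12. A930015D03Rik, 8.27 Mb away and overlapping H2-T22, H2-T23 and H2-T24 on the other strand, was at 1.14, 1.42, 1.45 and 0.881 CPM in wild type and 6.698, 6.01, 7.02 and 8.55 CPM in Spdef-/- (log2 2.52, SE 0.23, adjusted p = 2.09e-06). Abcg1 (3.33 Mb), H2-Bl (8.35 Mb), Gpr110 (15.5 Mb), Mep1a (15.7 Mb) and the heat-shock genes Hspa1a and Hspa1b (7.24 and 7.23 Mb), described elsewhere, also lie in this window, and Abcg5 and Abcg8 (56.9 Mb) do not. Whether position, and not Spdef, set these differences cannot be told apart with these groups.

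**Figure D4:**
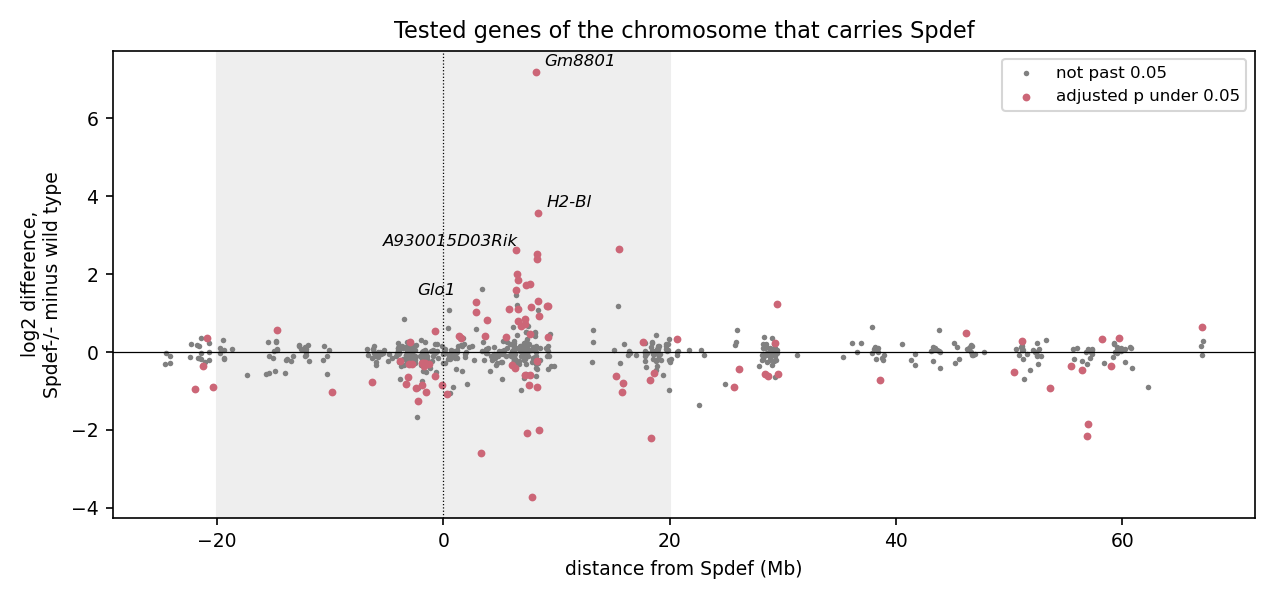
Log2 difference between Spdef-/- and wild-type non-goblet epithelium of each tested gene of chromosome 17 against its distance from Spdef in Mb (negative before it), with genes past an adjusted p of 0.05 in red and the window of 20 Mb on either side shaded. The large red points Gm8801, H2-Bl, A930015D03Rik and Glo1 lie in the shaded window at higher coordinates than Spdef.

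The 6 changed genes nearest to Spdef included both directions. AI413582 (0.149 Mb), which overlaps Hmga1 on the other strand, was at 8.75, 11.4, 8.06 and 7.05 CPM in wild type and 5.36, 4.6996, 4.74 and 4.901 CPM in Spdef-/- (log2 -0.83, SE 0.16, adjusted p = 0.00255) and Phf1, a Polycomb accessory protein (0.776 Mb), at 30.3, 30.4, 25.5 and 29.4 CPM in wild type and 19.97, 18.6, 18.8 and 17.7 CPM in Spdef-/- (log2 -0.62, SE 0.11, adjusted p = 0.000985), both lower in all Spdef-/- libraries. The other 4 lost their call when a library was left out. These were Tcp11 (log2 -1.08, SE 0.28, adjusted p = 0.0159), for which the call ended without wild-type 17 or Spdef-/- 4 (adjusted p = 0.0509–0.0603), Kifc5b (log2 0.53, SE 0.15, adjusted p = 0.0288), for which the call ended without wild-type 10 or 17 or Spdef-/- 4 or 8 (adjusted p = 0.0607–0.106), Neurl1b (log2 -0.31, SE 0.10, adjusted p = 0.0419), for which the call ended without wild-type 10, 12 or 17 or Spdef-/- 4, 6, 8 or 20 (adjusted p = 0.0576–0.148), and the cell cycle inhibitor Cdkn1a (log2 0.41, SE 0.13, adjusted p = 0.0384), for which the call ended without wild-type 10, 14 or 17 or Spdef-/- 6, 8 or 20 (adjusted p = 0.0552–0.108).

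Goblet cell RNA in the non-goblet fraction did not differ in a uniform way. Of the 6 goblet cell products 3 fell. Muc2, the gel-forming mucin, was at 43.99, 39.4, 52.9 and 57.2 CPM in wild type and 23.7, 41.1, 21.1 and 26.5 CPM in Spdef-/- (log2 -0.78, SE 0.17, adjusted p = 0.00715), Fcgbp, which crosslinks mucus, at 84.1, 75.7, 104 and 95.8 CPM in wild type and 51.99, 75.5, 52.5 and 52.8 CPM in Spdef-/- (log2 -0.62, SE 0.15, adjusted p = 0.00989), and Clca3, the mucus protease now called Clca1, at 76.2, 91.8, 99.5 and 116 CPM in wild type and 61.4, 80.8, 63.6 and 58.9 CPM in Spdef-/- (log2 -0.53, SE 0.14, adjusted p = 0.0146). In all 3 library 6 was the highest Spdef-/- library, and it overlapped the wild-type range for Muc2 and Clca3. For Clca3 the call ended without wild-type 17 (adjusted p = 0.0592). Without wild-type 17 and Spdef-/- 20 together none of the 3 passed. Zg16 (log2 0.09, adjusted p = 0.75), Agr2 (log2 0.06, adjusted p = 0.859) and Tff3 (log2 0.03, adjusted p = 0.924) did not pass, and the direction of Agr2 and Tff3 depended on the setting. Of 19 other goblet cell markers 3 fell, Guca2a as above, Spink4 at 7.35, 7.902, 15.3 and 6.17 CPM in wild type and 4.47, 4.18, 4.42 and 4.07 CPM in Spdef-/- (log2 -1.09, SE 0.22, adjusted p = 0.00417) and Capn8 at 12.6, 15.3, 15.3 and 13.7 CPM in wild type and 8.23, 11.7, 7.798 and 11.7 CPM in Spdef-/- (log2 -0.54, SE 0.13, adjusted p = 0.00989). Guca2a is also in the absorptive colonocyte list, and its wild-type level was higher in this fraction than in goblet cells. The 3 that rose were Kdelr3, a retrieval receptor of the endoplasmic reticulum, at 4.94, 4.504, 6.02 and 4.04 CPM in wild type and 11.9, 12.5, 7.603 and 8.34 CPM in Spdef-/- (log2 1.06, SE 0.16, adjusted p = 0.000285), Sytl2, an exocytosis adaptor, at 9.32, 9.403, 8.9995 and 10.6 CPM in wild type and 19.3, 11.9, 27.9 and 20.4 CPM in Spdef-/- (log2 1.05, SE 0.19, adjusted p = 0.00231), and Pdia5 (log2 0.45, adjusted p = 0.0109). Of these 19 other markers 31.6% changed, against 12.6% of all tested genes. The part of goblet cell RNA in the genotype difference of other genes was not tested.

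Lists of other secretory genes were counted as well, and their changed members were mostly of low level. Of 12 genes that depend on Spdef in goblet cells, by earlier results of these data, 2 fell here (16.7%, against 6.54% of all tested genes lower). Klhl13 was at 0.634, 0.7902, 0.508 and 0.661 CPM in wild type and 0.128, 0.196, 0.2599 and 0 CPM in Spdef-/- (log2 -1.96, SE 0.48, adjusted p = 0.0126), and Mt3 had 6 counts over the wild-type and 0 over the Spdef-/- libraries (adjusted p = 0.0367), where the call ended without wild-type 10 or 12 or Spdef-/- 4, 6, 8 or 20 (adjusted p = 0.0563–0.0935). Of 11 tested deep crypt and Paneth markers 2 rose and 1 fell, Mptx1 as above (27.3% changed, against 12.6% of all tested genes). In this list Ang4, an antimicrobial angiogenin, was at 0.127, 0.474, 0.363 and 0.147 CPM in wild type and 1.85, 2.48, 0.975 and 2.503 CPM in Spdef-/- (log2 2.78, SE 0.62, adjusted p = 0.0091). For Ang4 the call ended with limma-voom (adjusted p = 0.0771) and without wild-type 17 and Spdef-/- 20 together (adjusted p = 0.0551). In the same list Pla2g2a had 2 and 17 counts, a ratio of 8.48 (95% counting interval 2.01–75.7), where the call ended without wild-type 12 or 17 or Spdef-/- 4 (adjusted p = 0.0522–0.0839).

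Markers of other cell types and of handling were counted in the same way. Of 12 tested immune cell markers Lcp1, an actin bundler of leukocytes, rose (log2 0.46, SE 0.10, adjusted p = 0.00601), as did Igj, the joining chain of plasma cell antibodies, at 0.697, 1.11, 0.363 and 1.91 CPM in wild type and 1.59, 4.83, 2.66 and 4.59 CPM in Spdef-/- with overlapping groups (log2 1.73, SE 0.41, adjusted p = 0.0103). Of 5 tested stromal, endothelial, glial and blood markers, Pdgfrb, a receptor of pericytes and fibroblasts, fell, at 16.4, 14.2, 19.3 and 15.3 CPM in wild type and 8.36, 7.11, 10.1 and 8.34 CPM in Spdef-/- (log2 -0.95, SE 0.16, adjusted p = 0.00115). In a list of 23 genes induced by tissue dissociation 5 rose (21.7%, against 6.09% of all tested genes), and all 5 are heat-shock genes. Hspa1a was at 164, 167, 186 and 163 CPM in wild type and 253, 373, 315 and 281 CPM in Spdef-/- (log2 0.84, SE 0.12, adjusted p = 0.00027), Hspa1b at 297, 273, 316 and 279 CPM in wild type and 409.9, 541, 529.6 and 436 CPM in Spdef-/- (log2 0.72, SE 0.11, adjusted p = 0.000391) and Hspb1 at 5.45, 4.66, 4.4998 and 3.67 CPM in wild type and 7.91, 15.7, 11.1 and 12.4 CPM in Spdef-/- (log2 1.36, SE 0.24, adjusted p = 0.00156). For Hsp90aa1 (log2 0.52, SE 0.14, adjusted p = 0.0179) the call ended without wild-type 12 or 17 or Spdef-/- 8 (adjusted p = 0.0549–0.0628), and for Hsph1 (log2 0.62, adjusted p = 0.039) the call ended without wild-type 12, 14 or 17 or Spdef-/- 6, 8 or 20 (adjusted p = 0.0523–0.106). The list count was 3 without wild-type 12 or 17 or Spdef-/- 8. Immediate-early genes such as Fos (log2 -0.15, adjusted p = 0.537) and Jun (log2 -0.02, adjusted p = 0.956) did not pass. Junction genes were 2 higher and 1 lower of 27, a share of 11.1% that is no larger than the 12.6% of all genes, with Cldn15, a channel-forming claudin, at 74.7, 60.2, 70.6 and 66.96 CPM in wild type and 48.3, 54.3, 54.6 and 42.2 CPM in Spdef-/- (log2 -0.45, SE 0.09, adjusted p = 0.0025), Dsc2 (log2 0.24, SE 0.06, adjusted p = 0.0143), for which the call ended without wild-type 10 or 17 or Spdef-/- 8 (adjusted p = 0.0528–0.0591), and Ctnna1 (log2 0.22, SE 0.06, adjusted p = 0.0186), for which the call ended without wild-type 10, 14 or 17 or Spdef-/- 4 (adjusted p = 0.0525–0.0701). Of 17 tested clock genes 1 changed, a share of 5.88% that is below the 12.6% of all tested genes. It was Npas2, which fell (log2 -0.41, SE 0.12, adjusted p = 0.026), and the call ended without wild-type 10 or 17 or Spdef-/- 6 or 20 (adjusted p = 0.0561–0.0793), while 3 clock genes passed without Spdef-/- 6. None of 4 tested sex-linked genes passed.

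The genotype difference in the non-goblet fraction was then set against that in goblet cells, by the interaction of genotype and fraction. The interaction passed for 388 of the 1631 genes changed in the non-goblet fraction (23.8%) and for 9.53% of all tested genes. The 1631 genes were chosen by the non-goblet difference, which is also a term of the interaction. A larger share among them is therefore partly set by that choice. The count of 388 was 216 without wild-type 17, 241 without Spdef-/- 4 and 592 without Spdef-/- 6. In goblet cells 21.4% of tested genes changed. Of the genes higher in the non-goblet fraction 265 (33.7%) were also higher and 33 lower in goblet cells, and of the lower ones 206 (24.4%) were also lower and 83 higher. The fractions use separate libraries, which may come from the same mice. Libraries of both fractions with adjacent numbers deviated together from their group means. With those numbers as a block the interaction passed for 777 of the 1631 genes, including all 388, and for 25.8% of all tested genes. The list counts below are to be read beside these shares, with and without the block.

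Enteroendocrine markers moved in opposite directions in the fractions. In goblet cells 24 of the 30 rose and 1 fell, while 12 fell in the non-goblet fraction, and the interaction passed for 11 of these 12. Chgb averaged 47.4 and 132 CPM in wild-type and Spdef-/- goblet cells (log2 1.48, adjusted p = 1.97e-06), and the interaction was log2 -2.5, adjusted p = 1.92e-06. Chga (interaction log2 -2.29, adjusted p = 4.39e-06) and Tph1 (interaction log2 -2.63, adjusted p = 1.02e-05) had the same pattern. Rimbp2, a protein of exocytosis sites chosen by its interaction p, was at 6.15, 6.87, 6.89 and 6.39 CPM in wild type and 4.78, 4.11, 4.16 and 2.398 CPM in Spdef-/- in the non-goblet fraction (log2 -0.74, SE 0.18, adjusted p = 0.0111) and averaged 1.49 and 6.29 CPM in goblet cells (interaction log2 -2.79, adjusted p = 3.05e-06). Sst was lower in the non-goblet fraction and averaged 1.204 and 1.08 CPM in goblet cells (interaction log2 -1.44, adjusted p = 0.0356). The sorting gate separates cells by mCherry, and a change in which cells fell on each side of it was not tested.

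Of the 32 tuft cell markers 1 fell and none rose in goblet cells. The interaction passed for 11 of the 19 that fell in the non-goblet fraction (17 with the block of adjacent numbers), among them Trpm5 (log2 -1.74, adjusted p = 0.00194), Avil (log2 -1.83, adjusted p = 0.00027), Hpgds (log2 -1.28, adjusted p = 0.0015) and Dclk1 (log2 -1.94, adjusted p = 0.0183). Trpm5 averaged 10.3 and 8.56 CPM in wild-type and Spdef-/- goblet cells, levels close to wild-type non-goblet epithelium.

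Sterol genes differed for a subset. The interaction passed for 6 of the 19 synthesis genes that rose (14 with the block), including Fdps (log2 0.61, adjusted p = 0.03) and Idi1 (log2 0.52, adjusted p = 0.0308), whose goblet cell differences did not pass. Abcg1 went in opposite directions, from 8.96 and 26.5 CPM in wild-type and Spdef-/- goblet cells, where it rose (log2 1.57, adjusted p = 0.000877; interaction log2 -4.17, adjusted p = 1.15e-05). The interaction of Scd1 did not pass without the block (log2 0.67, adjusted p = 0.106) and passed with it (log2 0.68, adjusted p = 1.16e-05).

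Of the 61 interferon genes 27 rose and 3 fell in goblet cells. None of the 32 that rose in the non-goblet fraction had an interaction past the threshold without the block, against 388 of the 1631 changed genes. With the block 11 of the 32 had one, against 777 of the 1631. Among these 11 were Irgm2 (log2 1.29, adjusted p = 7.04e-08) and Ifit2 (log2 0.9, adjusted p = 0.00288). Of the 29 others 4 passed without the block, Ifi27l1 (log2 0.47, adjusted p = 0.0138), Rsad2 (log2 0.81, adjusted p = 0.0355), Irf7 (log2 -0.62, adjusted p = 0.0461) and Lgals3bp (log2 -0.8, adjusted p = 0.0155). Oas3 averaged 1.86 and 5.98 CPM in wild-type and Spdef-/- goblet cells (log2 1.69, adjusted p = 6.13e-05) (interaction log2 -0.11, adjusted p = 0.875). For the neighbours of Spdef, Glo1 averaged 62.8 and 134 CPM (interaction log2 0.21, adjusted p = 0.256, and 0.0361 with the block) and H2-Bl 0.2702 and 3.94 CPM (interaction log2 -0.27, adjusted p = 0.702), and Prdm1 averaged 0.842 and 2.29 CPM (interaction log2 0.07, adjusted p = 0.928). An interaction that did not pass does not show that the fractions responded alike.

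**Figure D5:**
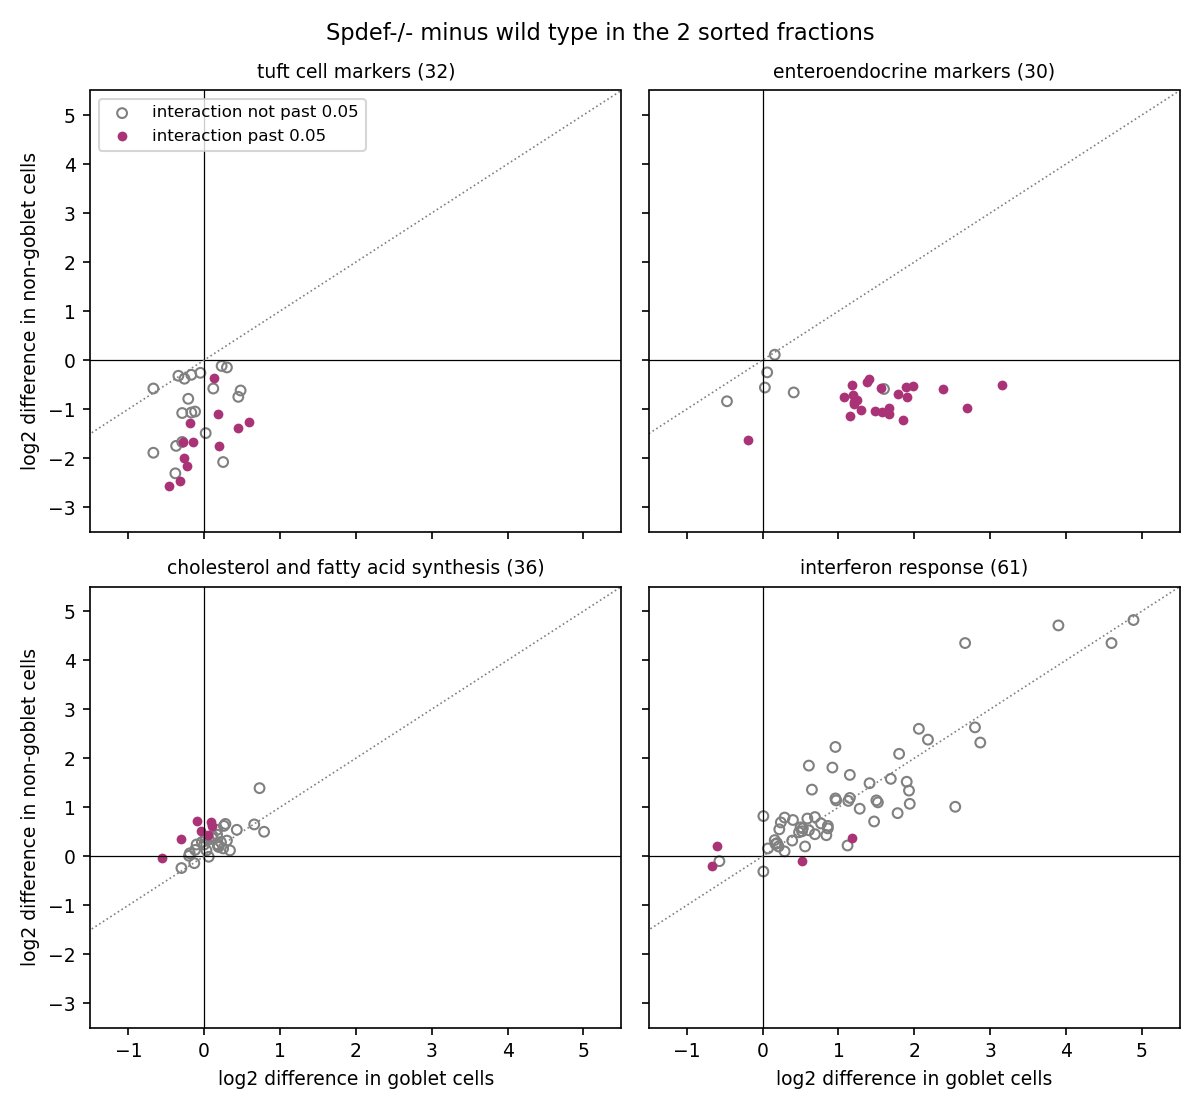
Log2 difference between Spdef-/- and wild type in non-goblet cells (vertical axis) against that in goblet cells (horizontal axis) for each tested member of 4 gene lists (number tested in the panel titles), filled where the interaction passed an adjusted p of 0.05 without the block. The dotted line marks equal differences. Enteroendocrine genes lie mostly to the lower right, tuft genes below 0 along the vertical line, and interferon genes along the dotted line.

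Genes of small interaction p outside these lists included several of opposite direction. Guca2a averaged 255 and 545 CPM in wild-type and Spdef-/- goblet cells (interaction log2 -1.34, adjusted p = 1.1e-06). Cgref1, a secreted EF-hand protein, was at 18.95, 18.02, 21.8 and 14.6 CPM in wild type and 26.5, 22.8, 21.4 and 25.97 CPM in Spdef-/- in the non-goblet fraction (log2 0.39, SE 0.10, adjusted p = 0.0172), and the call ended without wild-type 17 or Spdef-/- 4 (adjusted p = 0.0605–0.0678). In goblet cells it averaged 239 and 107 CPM and fell (interaction log2 1.56, adjusted p = 1.92e-06). Pmm2, a phosphomannomutase of glycosylation, was at 123, 115, 113 and 122 CPM in wild type and 153, 141, 154 and 148 CPM in Spdef-/- (log2 0.33, SE 0.06, adjusted p = 0.00152) and fell in goblet cells (log2 -0.54, adjusted p = 3.14e-06; interaction log2 0.87, adjusted p = 3.1e-06). Anks6, a ciliary protein, was at 2.98, 3.24, 3.48 and 3.67 CPM in wild type and 1.15, 1.24, 1.43 and 0.72995 CPM in Spdef-/- (log2 -1.5, SE 0.16, adjusted p = 1.43e-05) and rose in goblet cells (log2 0.54, adjusted p = 0.00101; interaction log2 -2.04, adjusted p = 2.95e-06).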

How the data were processed

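Ribosomal RNA-depleted, stranded total RNA libraries of sorted distal colon cells were sequenced in pairs of reads, per the labels. The deposited table holds raw read counts per gene symbol in 16 libraries, and a deposited companion table holds the same counts divided by a size factor per library, a signal that the authors scaled and that was used here only to restore 27 symbols turned into dates and to check the scaling. Per the submitters' processing notes the build was mm10 and the tools were HTSeq 0.6.1p1 and STAR 2.4.0f, with FastQC 0.11.2 and DESeq2 1.14. The annotation and the strand setting of the counting are not stated. Genes that overlap another on the opposite strand (27 of the 132 genes named by rule, among them Trpm5, Glo1, Nlrc5, Ciita, S100g, Aldh1a1, Cd97, Plekha1, Sycn and Kdelr3) are uncertain. Of 21442 genes, 20178 symbols matched a current symbol, 1167 an older one and 97 none. The 3 rows that name no gene (47.1–54.7% of all counts) were left out of library sizes and tests.

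Genes were filtered by filterByExpr and scaled by TMM, and 12915 were tested with edgeR 4.0.16 (R 4.3.3) in a quasi-likelihood fit over the 16 libraries with a coefficient per genotype and fraction. P-values were adjusted over all genes tested by Benjamini-Hochberg, with a threshold of 0.05. SE is the size of the log2 difference over the square root of F. The interaction is the genotype difference in non-goblet cells minus that in goblet cells. The labels do not pair libraries. Their numbers run side by side in the fractions (such as 9 and 10), and in 8 of 8 such pairs the deviations from the group means correlated (r across genes 0.125–0.613), best with the adjacent number, so the interaction was also fitted with these pairs as a block, chosen after seeing the data. The biological coefficient of variation was 11.7%. The fit was tested on simulated data. Gene counts per non-goblet library of 10085637–16522063 leave genes under about 0.5 CPM with few reads, and counting intervals (95%, exact) cover counting error only. Medians by library are of log2(CPM + 0.5) minus the wild-type mean.

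The comparison, its gene lists and its tests were chosen with earlier results of these data known. Genes were named by rule: Spdef, the goblet cell products and 5 given markers, the 15 largest changes in each direction (at least 5 CPM in the higher group, no overlap), the 10 smallest p in each direction, up to 4 changed members of each list, the 6 changed genes nearest to Spdef and the 6 of smallest interaction p. Some genes are not reported here. Other genes named, mostly further list members, were chosen after their values were seen. Alternatives were a fit of the 8 non-goblet libraries, RLE and upper-quartile scaling, no low-count filter, DESeq2 1.42.0, limma-voom 3.58.1, each library left out, and wild-type 17 and Spdef-/- 20 left out together. The sterol motif was added after seeing the data. Promoters are RefSeq sequences of GRCm38.p6.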

Additional observations from a re-analysis of the deposited data

Results flagged for a closer look

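The genotype difference in the non-goblet fraction differed from that in goblet cells, by the edgeR interaction test at an adjusted p of 1.1e-06–0.0358, for 50 of the 132 genes named by rule. With adjacent library numbers as a block it passed for 73, these 50 among them. Most of the 132 genes were named for their non-goblet difference and 6 for their interaction p, so these shares do not stand for all genes. Values are the log2 difference in the non-goblet fraction minus that in goblet cells. Endocrine and exocytosis genes had negative values, with Chga (-2.29), Chgb (-2.50), Sst (-1.44), Tph1 (-2.63) and Rimbp2 (-2.79). So did genes of the tuft cell list and 3 other genes, with Trpm5 (-1.74), Sh2d7 (-2.15), Dclk1 (-1.94), Avil (-1.83), Ptgs1 (-2.10), Hpgds (-1.28), Dnahc5 (-1.75), Prss23 (-1.42) and Anks6 (-2.04). Negative values were also found for the goblet cell products Muc2 (-0.84), Clca3 (-0.70), Fcgbp (-0.83) and Tff3 (-0.85). The same held for Guca2a (-1.34), a member of both the colonocyte and the goblet cell lists, and for the sterol transporters Abcg1 (-4.17), Abcg5 (-2.21) and Abcg8 (-1.76). Among transport and brush border genes these were S100g (-2.39), Slc34a2 (-1.20), Slc4a4 (-0.88), Slc12a7 (-0.40), Slc9a3 (-1.21), Cdhr5 (-0.47), Mep1a (-0.64), Baiap2l2 (-1.27) and Cldn15 (-0.49). The other negative values were Bmp3 (-0.88), 5430427M07Rik (-2.13), Cd97 (-0.62), Aldh1a1 (-1.09), Plekha1 (-0.68), Ctss (-0.50), Pdgfrb (-1.21) and Neurl1b (-0.63). Positive values, where the non-goblet difference lay above that in goblet cells, were found for Tfrc (0.69), Ckap4 (0.49), Lpo (1.24), Kdelr3 (0.97), Pla2g2a (2.68), Idi1 (0.52), Fdps (0.61), H2-DMb1 (2.68), Ces1f (0.57), Cgref1 (1.56) and Pmm2 (0.87).

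In 263 groups of 4 libraries tested, 1 library stood apart from the other 3 in 18, by a gap over Dixon's 95% critical value for the share of the group's range. Chance flags about 5% of such groups. Spdef-/- 6 was higher than the rest of its group for Fcgbp (0.967), Asb11 (0.938) and Mettl7a2 (0.853). Wild-type 17 was lower than the rest of its group for Gm12250 (0.891) and Kifc5b (0.853). Wild-type 14 was higher than the rest of its group for Dnahc5 (0.900), Dclk1 (0.834), Mptx1 (0.846) and Lgr5 (0.889). Spdef-/- 20 was higher than the rest of its group for S100g (0.860) and Id2 (0.933). Wild-type 12 was higher than the rest of its group for H2-T3 (0.862), Gm8801 (1), 5430427M07Rik (0.890), Slc9a3 (0.923) and Neurl1b (0.847). Spdef-/- 20 was lower than the rest of its group for Sycn (0.862). Wild-type 10 was higher than the rest of its group for Msi1 (0.914). Gaps are in parentheses, as a share of the range. For Gm8801 the apart value is the 1 count in the wild-type group.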

How the results depend on the processing

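The number of higher genes, 787 as reported, was 470.0 with only the 8 non-goblet libraries in the fit, 332 without wild-type 17 and Spdef-/- 20 together, and 380.0 to 1183 as each library was left out. The number of lower genes, 844, was 480.0 without wild-type 17 and Spdef-/- 20, and 560.0 to 1070.0 as each was left out. The number of changed genes whose interaction passed, 388, was 178 without that pair and 216 to 592 as each was left out, and the fit of the 8 libraries gives no interaction. In the direction and call of the named genes, 1811 of 1975 values were as reported, 157 lost the call and 7 changed sign. Agr2 turned to log2 -0.07 without wild-type 17, -0.04 without Spdef-/- 4 and -0.07 without wild-type 17 and Spdef-/- 20. Tff3 turned to -0.02 with upper-quartile scaling, -0.02 without wild-type 10, -0.07 without Spdef-/- 20 and -0.09 without that pair. As each library was left out, Agr2 ran from -0.07 to 0.25 and Tff3 from -0.07 to 0.10. Neither gene passed in any of these. The cause was not tested.

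With limma-voom the calls of Iigp1, Gm12250, Ciita, Gbp3, Irgm2 and Ang4 ended, and with DESeq2 those of Slc15a2, Mt3 and Msi1. In the fit of the 8 non-goblet libraries 12 ended, Iigp1, Ciita, Irgm2, Slc15a2, Rara, Npas2, Dsc2, Ctnna1, Kifc5b, Cdkn1a, Guca2a and Cgref1. With no low-count filter 10 ended, Iigp1, Ciita, Gbp3, Irgm2, Slc15a2, Mt3, Msi1, Ctnna1, Cdkn1a and Guca2a. Upper-quartile scaling ended those of Ctnna1 and Cdkn1a.

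The genotypes share no library numbers, so their difference was not paired. Adjacent numbers of both fractions, used as a block after seeing the data, lie within a genotype and bear on the interaction alone, where 777 of the changed genes passed in place of 388. Depth limits genes of a few counts, such as Msi1, Mt3, Gm8801 and Pla2g2a, and 4 libraries a group limit all calls near the threshold.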
